A study of Homo sapiens with 2 samples.

Results

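The clock genes described here were 10 genes of the transcriptional loop that keeps daily time in cells: CLOCK, ARNTL, PER1, PER2, PER3, CRY1, CRY2, NR1D1, NR1D2 and DBP. They were taken by gene symbol from the deposited expression table, which held 1 probe set for each of the 10, among 20235 genes in all. The table lists ARNTL under that name, and its current symbol is BMAL1. AGS, an established cell line from a human gastric adenocarcinoma, was profiled on 1 array after 100 nM LBH589 for 24 h and on 1 array with the treatment given as none. LBH589 is panobinostat, an inhibitor of histone deacetylases of several classes. Both groups were the same line. The title of the control sample reads "control treated", yet neither a vehicle nor a culture time was found for the control cells. No step that synchronises the clocks of the cells was found, and each group was harvested once. A change in level and a change in the phase of a rhythm therefore cannot be told apart. Each group was 1 array, so no difference below has a test, an error or a p-value, and a gene counts as higher or lower where its intensities differ by 2-fold or more.

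As background, the clock of mammalian cells is a feedback loop of transcription. CLOCK and BMAL1 pair to bind E-box sequences and switch on the PER and CRY genes, whose proteins return to the nucleus and repress the pair. In a second loop the REV-ERB receptors, encoded by NR1D1 and NR1D2, repress ARNTL and recruit a corepressor that contains the deacetylase HDAC3, while ROR receptors activate it at the same element. DBP is an output of the loop that acts through D-box sequences.

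Promoter windows are shown for the members that were 2-fold higher, ARNTL and DBP, and for the members whose windows held an E-box, PER1 and NR1D2. ARNTL and NR1D2 each had 2 annotated windows, and the 1 with motif matches is shown, chosen after the matches were seen. Each runs from 250 bases before to 50 bases after an annotated start, on the gene's strand, 5′ to 3′, and comes from the RefSeq annotation of GRCh38.p14. Capitals mark any match, on either strand, to the E-box CACGTG, the cAMP response element TGACGTCA, the D-box TTATGTAA or the ROR element core AGGTCA. No matches overlapped. The windows lie at chr11:13277540-13277839 (plus strand) for ARNTL, chr19:48637330-48637629 (minus strand) for DBP, chr17:8152355-8152654 (minus strand) for PER1 and chr3:23945871-23946170 (plus strand) for NR1D2.
ARNTL: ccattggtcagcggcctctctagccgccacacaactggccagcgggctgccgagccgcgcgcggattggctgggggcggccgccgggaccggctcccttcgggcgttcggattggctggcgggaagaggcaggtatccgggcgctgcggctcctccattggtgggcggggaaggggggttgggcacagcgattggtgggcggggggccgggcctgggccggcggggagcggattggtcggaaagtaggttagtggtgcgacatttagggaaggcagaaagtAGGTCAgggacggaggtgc
DBP: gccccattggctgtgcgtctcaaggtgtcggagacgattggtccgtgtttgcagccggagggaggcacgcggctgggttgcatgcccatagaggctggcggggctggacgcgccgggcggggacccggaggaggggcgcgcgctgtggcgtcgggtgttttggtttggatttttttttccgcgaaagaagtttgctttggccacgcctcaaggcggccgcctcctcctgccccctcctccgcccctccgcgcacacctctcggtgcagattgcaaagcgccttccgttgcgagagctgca
PER1: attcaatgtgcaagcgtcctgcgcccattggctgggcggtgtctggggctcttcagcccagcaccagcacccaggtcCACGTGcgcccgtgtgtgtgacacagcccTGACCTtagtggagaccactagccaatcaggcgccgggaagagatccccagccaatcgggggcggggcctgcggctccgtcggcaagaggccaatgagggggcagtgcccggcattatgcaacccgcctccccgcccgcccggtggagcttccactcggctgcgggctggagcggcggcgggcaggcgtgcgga
NR1D2: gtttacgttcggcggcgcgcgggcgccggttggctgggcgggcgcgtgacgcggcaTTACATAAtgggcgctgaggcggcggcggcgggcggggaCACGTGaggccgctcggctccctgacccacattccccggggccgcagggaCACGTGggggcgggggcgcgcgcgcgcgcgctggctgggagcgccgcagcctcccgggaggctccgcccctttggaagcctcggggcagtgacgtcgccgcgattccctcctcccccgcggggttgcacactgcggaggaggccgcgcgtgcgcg

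The ARNTL window shown held 1 ROR element core, whose first base lay 31 bases past the start, and no E-box, and its other window held none of the 4 motifs. The DBP window held none of the 4 motifs. The PER1 window held an E-box 173 bases before the start and a ROR element core on the other strand, written TGACCT in the line above. The NR1D2 window shown held 2 E-boxes, 155 and 105 bases before the start, and a D-box on the other strand, 194 bases before the start, and the other NR1D2 window held none of the motifs. Over all 10 members the annotation gave 15 windows. An E-box was found in 2 of them, a D-box in 2, a ROR element core in 4 and a cAMP response element in none. Among all 35116 windows, 7.26% held an E-box, 0.886% a D-box, 13.8% a ROR element core and 1.85% a cAMP response element. Only the exact letters were searched, and only within these windows. Variant forms of each element and sites elsewhere were not counted, so a window without a match can still hold such an element. A match is a description of these letters, and the arrays carry no measure of binding.

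The values below are the deposited intensities on a linear scale. Over all probe sets, median intensities were 4.77 (LBH589 array) and 4.84 (control array). Background was set at 4.36, the level under which 95% of the values of 450 probe sets for olfactory receptors lay, since gastric cells are not thought to use these genes. On this measure 53.2% and 53.7% of probe sets reached background on the LBH589 and control arrays. The unfloored log2 ratios of those olfactory probe sets had an SD of 0.18, the only measure of spread these dim signals offer. Of 9 gastric epithelial markers measured, 7 were at or above background on each array, with summed intensities of 4551 for LBH589 and 4038 for control. The keratins KRT8 (2292 in LBH589-treated and 1967 in control cells) and KRT18 (632 in LBH589-treated and 634 in control cells) were among the brightest. The mucin gene MUC1 was 5.58-fold lower (37.8 with LBH589, 211 in control), the keratin KRT19 was 2.07-fold higher (1171 with LBH589, 566 in control) and EPCAM had 337 with LBH589 and 577 in control, so these markers did not stay level. CLDN18 and TFF2, genes of the gastric lining, were below background on both arrays. The part of the marker changes in the clock values was not tested. Of 12 markers of leukocytes, endothelium and fibroblasts, 3 were at or above background in LBH589-treated cells and 5 in control cells. Their intensities lay between 2.82 and 38.8 in LBH589-treated cells and between 2.76 and 26.6 in control cells, with sums of 87.6 for LBH589 and 84.1 for control. The brightest of these markers were COL1A1 (38.8 with LBH589, 26.6 in control) and ACTA2 (11.6 with LBH589, 19.5 in control). The leukocyte marker PTPRC had 2.95 with LBH589 and 2.76 in control. The part of these cell types in the clock values was not tested. These are bulk samples, so fewer cells with a transcript and less of it per cell cannot be told apart.

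All 10 clock genes were at or above background on both arrays. ARNTL and DBP were at least 2-fold higher in LBH589-treated cells, none of the clock genes was 2-fold lower or more, and the remaining 8 changed by less. Among all 18769 detected genes, 4.90% were at least 2-fold higher and 4.86% at least 2-fold lower. Among the 13447 genes that reached background on at least 1 array, as all clock genes did, the shares were 6.83% and 6.78%. The log2 ratio of LBH589 over control was above 0 in 6 clock genes and below 0 in 4, with a median of 0.25, against a median of 0.00 over all detected genes. The order of the log2 ratios from high to low was ARNTL, DBP, PER1, CRY1, NR1D1, CRY2, PER2, PER3, CLOCK and NR1D2. PER1 and CRY1, and likewise NR1D1 and CRY2, differed from each other by less than the spread of the olfactory probe sets, as did CLOCK and NR1D2.

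**Figure D1:**
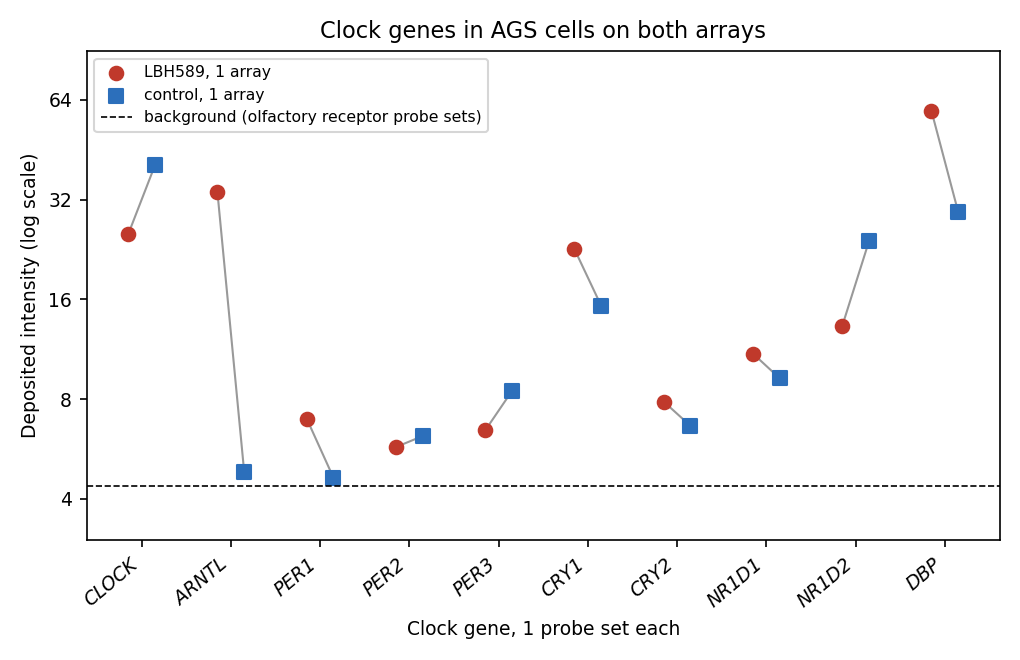
Deposited intensity (log scale) of the 10 clock genes on the LBH589 array (red circles) and the control array (blue squares), 1 array each, joined by a line for each gene. The dashed line is the background of 4.36; ARNTL lies at 33.7 with LBH589 and at 4.82 in control, just above the line, and levels of different genes are not comparable because each has its own probes.

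The activators of the loop differed in direction and size. ARNTL, which encodes BMAL1, had an intensity of 33.7 in LBH589-treated cells and 4.82 in control cells, a 7.0-fold difference and a log2 ratio of 2.81. Its treated level was 7.73 times background, and its control level was 1.10 times background. Only 42 of the 18769 detected genes had a higher log2 ratio. Its partner CLOCK, the other subunit of the activator, had 25.1 in LBH589-treated cells and 40.6 in control cells, a log2 ratio of -0.69. The log2 ratios of these partners thus differed by 3.50. CLOCK lay within 2-fold, with 8.59% of detected genes below it.

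The paralogs of these activators did not show the ARNTL pattern. ARNTL2 (now BMAL2), which can stand in for BMAL1 as a partner of CLOCK, had 25.6 in LBH589-treated cells and 33.6 in control cells, a log2 ratio of -0.40 that was 3.20 below that of ARNTL. NPAS2, which can take the place of CLOCK in the pair, had 10.8 in LBH589-treated cells and 35.9 in control cells and was 3.34-fold lower. Its log2 ratio of -1.74 was 1.05 below that of CLOCK. Of the 4 activator genes, therefore, 1 was 2-fold higher, 1 was 2-fold lower and both remaining ones had log2 ratios below 0. Over all detected genes, 4.90% were at least 2-fold higher and 4.86% at least 2-fold lower. A group of 4 genes is too small to set against these shares.

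The 3 PER genes, which encode the repressor subunits that time the loop, were dim on both arrays and had log2 ratios of either sign. PER1, also known as an immediate-early gene, had 6.99 in LBH589-treated cells and 4.64 in control cells, a log2 ratio of 0.59. The control value of PER1 was 1.06 times background and below the stricter level of 4.75 given by percentile 95 of the brighter array of each olfactory probe set. PER2 had 5.74 in LBH589-treated cells and 6.19 in control cells, and its log2 ratio of -0.11 was smaller than the spread of the olfactory probe sets. PER3 had 6.44 in LBH589-treated cells and 8.47 in control cells, a log2 ratio of -0.39. The log2 ratio of PER1 was above that of PER2 by 0.70 and above that of PER3 by 0.99.

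The cryptochromes, the PER partners that hold the CLOCK and BMAL1 pair inactive, both had log2 ratios above 0 and within 2-fold. CRY1 had 22.7 in LBH589-treated cells and 15.3 in control cells, a log2 ratio of 0.57. CRY2 had 7.87 in LBH589-treated cells and 6.64 in control cells, a log2 ratio of 0.24. CRY1 stood at 3.51 times background or more on both arrays, whereas CRY2 stood below 2 times background on both.

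Of 4 further genes of the repressor group, BHLHE40 (-1.24), TIMELESS (-0.50) and CIART (-0.44) had log2 ratios below those of all PER and CRY genes. BHLHE40, which competes for E-boxes, had 32.7 in LBH589-treated cells and 77.4 in control cells and was 2.37-fold lower. Its relative BHLHE41 (4.32 with LBH589, 4.33 in control) and the repressor CIART (3.09 with LBH589, 4.18 in control) were below background on both arrays. TIMELESS, which in mammals also serves the replication fork, had 23.2 in LBH589-treated cells and 32.8 in control cells, a log2 ratio of -0.50. Over this group of 9 genes, the 5 PER and CRY members included, none was 2-fold higher and 1 was 2-fold lower. The shares of all detected genes were 4.90% higher and 4.86% lower, so these counts do not set the group apart.

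The REV-ERB receptors had log2 ratios of opposite sign. NR1D1, which encodes REV-ERB alpha, had 11.0 in LBH589-treated cells and 9.24 in control cells, a log2 ratio of 0.25. NR1D2, which encodes REV-ERB beta, had 13.3 in LBH589-treated cells and 24.0 in control cells, a log2 ratio of -0.85 that fell short of 2-fold by 0.15. The log2 ratios of the pair differed by 1.10. In the annotation NR1D1 overlaps its neighbour THRA, a thyroid hormone receptor gene, which had 8.11 in LBH589-treated cells and 11.1 in control cells, and whether a probe reads both was not tested. The ROR receptor genes RORA (3.18 with LBH589, 3.01 in control) and RORB (3.14 with LBH589, 3.06 in control) were below background on both arrays.

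DBP, the D-box activator, had 59.2 in LBH589-treated cells and 29.3 in control cells, a 2.02-fold difference and a log2 ratio of 1.01. It passed 2-fold by 0.013 on the log2 scale, and 4.75% of detected genes had a higher ratio. Its treated level was 13.6 times background and its control level 6.73 times background. NFIL3, a repressor that binds the same D-box, had 23.5 in LBH589-treated cells and 5.68 in control cells and was 4.15-fold higher, a log2 ratio 1.04 above that of DBP. The relatives of DBP that also activate through the D-box were TEF, with 8.16 in LBH589-treated cells and 8.89 in control cells, and HLF, which was below background on both arrays (3.60 with LBH589, 3.67 in control).

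**Figure D2:**
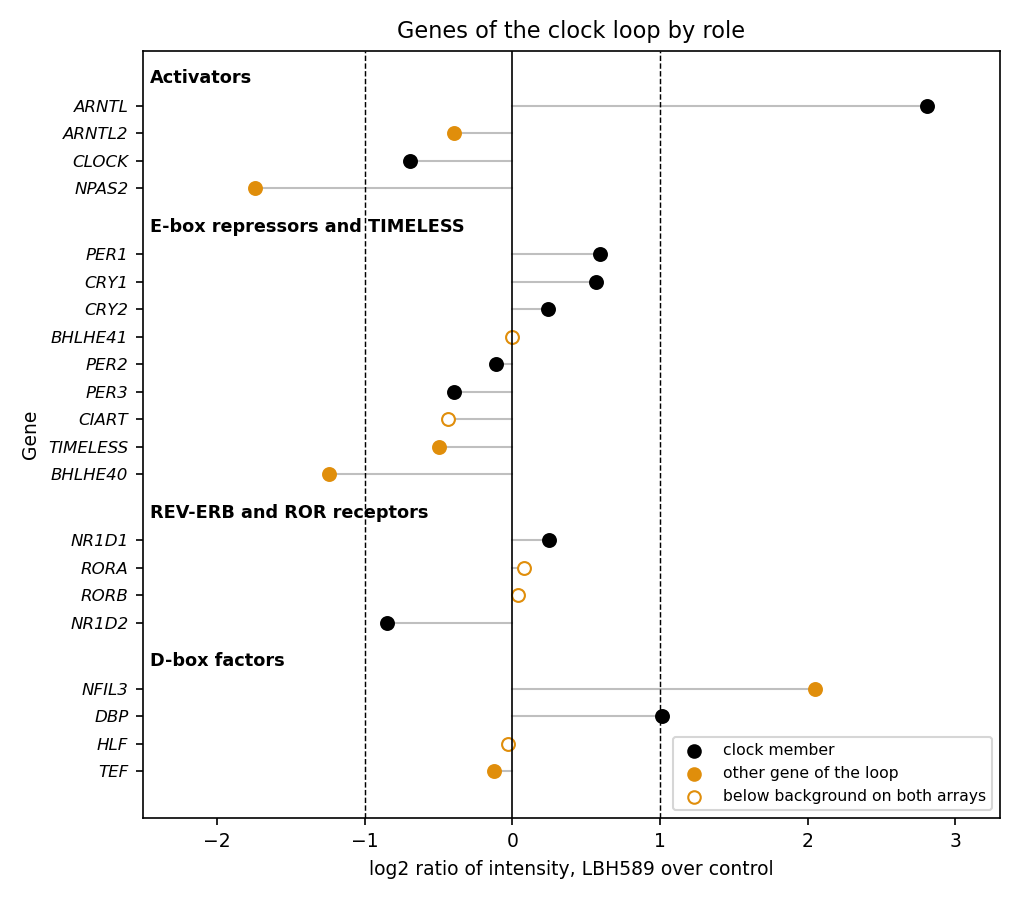
Log2 ratio of intensity, LBH589 over control, for the genes of the loop grouped by role, 1 array per group. Black points are clock members, orange points other genes of the loop and open points genes below background on both arrays; dashed lines mark 2-fold, and ARNTL (2.81), NFIL3 (2.05) and DBP (1.01) lie to the right while NPAS2 (-1.74) and BHLHE40 (-1.24) lie to the left.

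**Figure D3:**
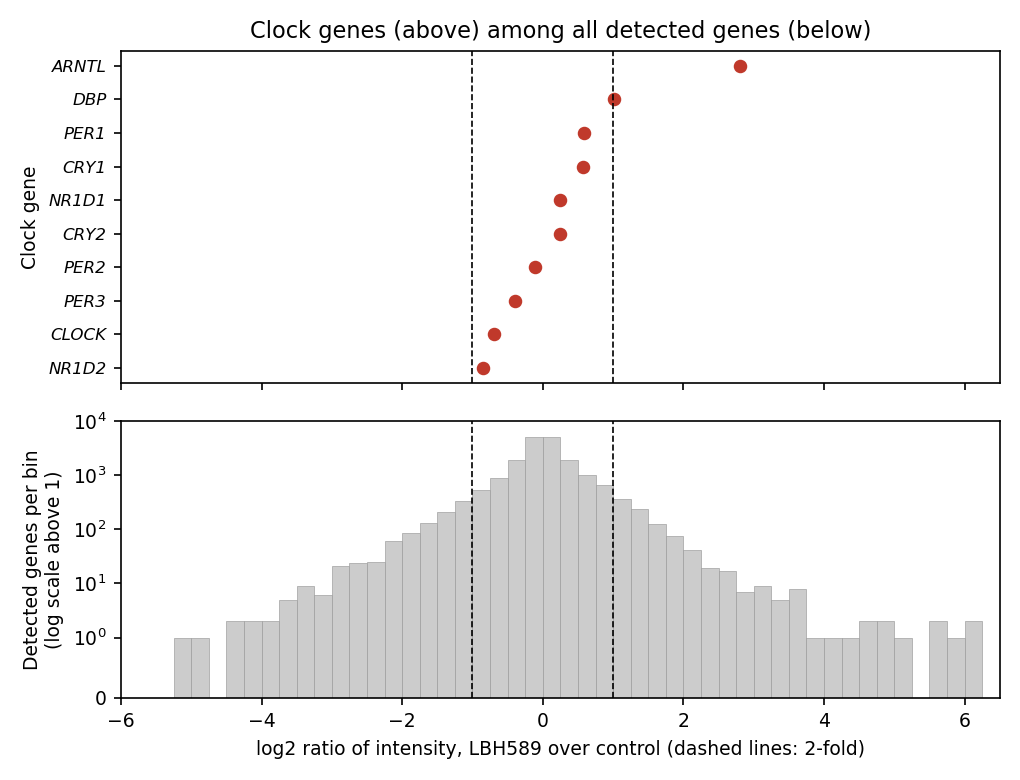
Log2 ratios of the 10 clock genes (upper panel) above the histogram of all 18769 detected genes (lower panel, count per bin on a scale that is logarithmic above 1), with dashed lines at 2-fold. ARNTL at 2.81 lies in the sparse right tail, DBP at 1.01 lies on the 2-fold line, and the remaining 8 members lie between -0.85 and 0.59.

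Enzymes and partners of the clock proteins were counted as further genes of the pathway. Together with the genes of the loop that are no members, 57 of 58 listed genes were matched in the table. Of these 57, 2 were 2-fold higher (3.51%) and 6 were 2-fold lower (10.5%), with a median log2 ratio of -0.10. The shares over all detected genes were 4.90% and 4.86%. Over genes that reached background on at least 1 array, as 47 of the 57 did, they were 6.83% and 6.78%. Besides NFIL3, NPAS2 and BHLHE40, the genes past 2-fold were the following. CSNK1D, a kinase that marks PER proteins for breakdown, had 124 in LBH589-treated cells and 254 in control cells and was 2.05-fold lower. It was the only 1 of 15 kinases, ubiquitin ligases and related enzymes past 2-fold.

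Among 18 coregulators, HDAC3 was 3.03-fold higher (210 and 69.2 in LBH589-treated and control cells). Other parts of the corepressor through which REV-ERB proteins act had log2 ratios below 0, at -0.78 for NCOR1, -0.32 for TBL1X and -1.42 for TBL1XR1. TBL1XR1 was 2.68-fold lower, with 43.4 in LBH589-treated cells and 116 in control cells. The acetyltransferase CREBBP, a coactivator of the loop, was 2.74-fold lower. SFPQ, a partner of NONO in PER complexes, was 2.57-fold lower (62.7 with LBH589, 161 in control), while NONO itself had 371 and 420 in LBH589-treated and control cells.

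Of 13 genes often described as clock outputs, none was 2-fold higher or lower, against 4.90% and 4.86% of all detected genes. Log2 ratios were above 0 in 10 of the 13, with a median of 0.24, against 0.00 over all detected genes. Some of those 10 ratios were smaller than 0.18, the SD of the olfactory probe sets. Only 11 of the 13 genes reached background on at least 1 array. NAMPT, the enzyme of NAD salvage, had 222 in LBH589-treated cells and 204 in control cells. WEE1, a kinase that restrains entry into mitosis, had 10.4 and 18.5 in LBH589-treated and control cells by its brightest probe set, a log2 ratio of -0.84, while its other probe sets gave -1.21 and -1.50.

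The size of the changes varied with the handling of dim signals. When 50, more than the level of every clock gene except DBP on the LBH589 array, was added to all intensities, the log2 ratio was 0.61 for ARNTL and 0.46 for DBP, and no clock gene reached 2-fold. With a floor of 16, ARNTL had a log2 ratio of 1.08. Of the other called genes of the loop, NFIL3 had log2 ratios of 0.56 with that floor and 0.40 with 50 added, NPAS2 had -0.50 and BHLHE40 had -0.62 with 50 added. All 10 members rest on 1 probe set each. Across 332 genes with 2 probe sets above background on both arrays, the log2 ratios of the pair differed by a median of 0.13, and in the widest 5% by at least 1.0.

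**Figure D4:**
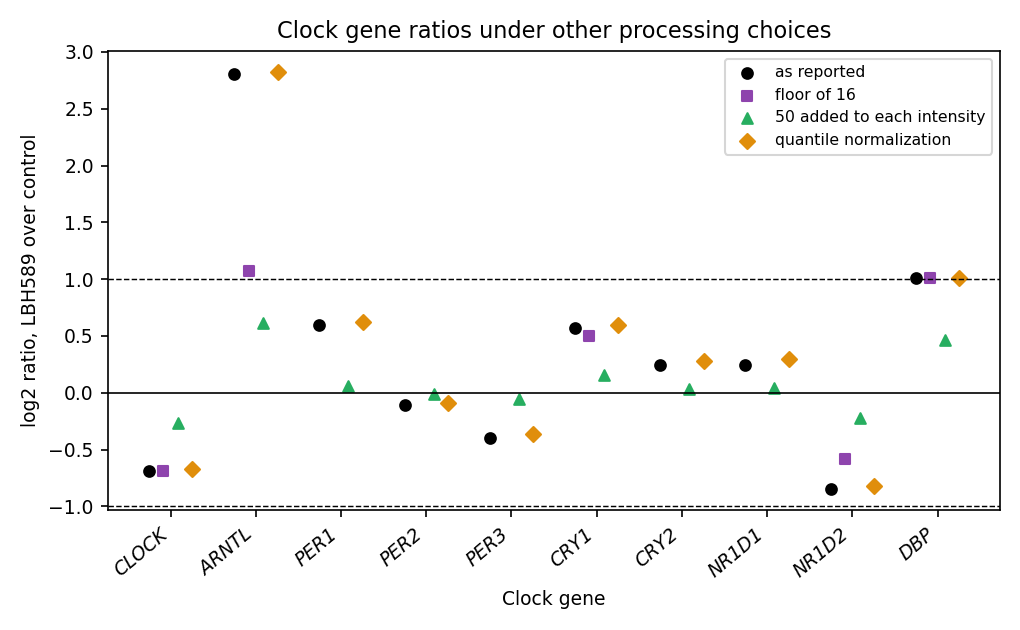
Log2 ratio, LBH589 over control, of each clock gene as reported (black), with a floor of 16 (purple, drawn for the 5 members that reach it), with 50 added to each intensity (green) and after quantile normalization (orange). ARNTL drops to 1.08 and 0.61 and DBP to 0.46 under the stronger treatments of dim signals, while quantile normalization moved no member by more than 0.0481.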

How the data were processed

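Total RNA of both samples was labelled with biotin by an Affymetrix one-cycle cRNA kit, per the labels' protocols. The deposited intensity values were, per the file headers, made by the authors with gene-level RMA, while the submitters' processing notes name MAS5. For the array design, software versions and build, the sources used here give nothing. The deposited fold is the authors' ratio of LBH589 to control intensity and matched the intensities in all rows (largest relative difference 1e-08). A second deposited table held the same intensities.

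Symbols were matched to RefSeq names (GRCh38.p14). Of 21864 probe sets with 1 symbol, 18258 took the name of their accession, whether or not it differed from the symbol. A further 1111 already had a current symbol and 1037 were named through an earlier symbol, while 1458 had no single match and kept theirs. The probe sets with no symbol (11234) or several (199) were left out, and none of the latter named a clock gene. The brightest probe set stood for a gene. Intensities below 2.95, percentile 20, were set to that floor, which the brighter array had to reach for a gene to count as detected. Log2 ratios are LBH589 over control. The members, gene lists and settings were chosen with earlier results of these data known. All members were named, as were all other genes of the 4 loop groups, and of the enzyme, coregulator and output lists those past 2-fold. A few further genes (NONO, NCOR1, TBL1X, NAMPT, WEE1, THRA, and the markers named) were named after their values were seen. Some other genes of the pathway were left out of the lists and are not reported here. No likeness of pattern was computed, since 2 arrays give 1 ratio per gene. Calling by size was tested on simulated data, which gives no measure of error for the calls on these 2 arrays. The number of arrays limits precision. Python 3.11.15, numpy 2.4.6, pandas 2.3.3 and matplotlib 3.10.9 were used.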

Additional observations from a re-analysis of the deposited data

How the results depend on the processing

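With 1 array per group no replicate could be left out and no p-value exists. No paired analysis was possible because each group has 1 sample. Alternatives were a floor of 16, a floor at background, no floor, 50 added, centring, quantile normalization, the median over probe sets, the second deposited table (identical values) and sizes of 1.5-fold and 3-fold. The log2 ratios of the 10 clock genes were equal to the reported ones with no floor, with a floor at background, after centring, for the median over probe sets and in the second table, since these choices do not touch genes with 1 probe set above background on a median of 0.00. Where values could move, 9 of 10 moved by more than 0.18, the SD of olfactory receptor probe sets, with 50 added, and 2 of 5 with a floor of 16. Neither setting can turn a sign. Quantile normalization moved them by at most 0.0481. The number of clock genes 2-fold higher was 0 with 50 added and 1 at 3-fold (ARNTL). At 1.5-fold 3 were higher, PER1 besides ARNTL and DBP, and 2 were lower (CLOCK and NR1D2). Of all detected genes, 11.4% had a log2 ratio above that of PER1 and 8.59% had one below that of CLOCK. The shares of all detected genes past 1.5-fold and 3-fold are not given here, so these counts have no rate beside them. The median log2 ratio of the clock genes was 0.036 with 50 added and 0.50 with a floor of 16, which leaves 5 members with a value. Of the other genes of the pathway, 1 was higher with a floor of 16, 1 with 50 added and 6 at 1.5-fold. Lower were 0 with 50 added, 7 for the median over probe sets, 8 at 1.5-fold and 1 at 3-fold. Members at a few times background, above all the PER genes and ARNTL in control cells, carry little signal on which to rest a ratio.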
